A study of Mus musculus with 20 samples.

Results

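The 8 hearts compared here were taken 2 or 4 weeks after TAC (transverse aortic constriction, a band that narrows the aorta and makes the left ventricle pump against pressure). They are 8 of the 20 mouse hearts of a study of Wnt5a, a secreted Wnt ligand, and were chosen by their labels alone. The mice were C57BL/6. Controls carried floxed Wnt5a alleles, and CKO mice carried the same alleles with Cre driven by the Myh6 promoter, a promoter of heart muscle cells, joined to part of the oestrogen receptor (labelled Esr 1), a design in which tamoxifen lets Cre act in those cells. The series also sampled both genotypes at the end of tamoxifen treatment. The labels give neither the age nor the sex of the mice, nor the pressure across the band.

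Each TAC group held 2 hearts, named by the numbers in their labels. At 2 weeks these were hearts 11 and 32 (control) and 13 and 31 (CKO), and at 4 weeks hearts 1 and 2 (control) and 3 and 41 (CKO). Paired values below follow this order. A further 8 hearts, taken 2 or 4 weeks after a sham operation, 4 of each genotype, give the level without constriction. Each library is labelled as a separate heart. No heart was sampled at both times, so a change with time is a difference between hearts.

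The overloaded heart goes through phases. In the weeks after banding, fibroblasts, vascular cells and macrophages divide and the interstitium fills with collagen, elastin and periostin. Muscle cells meanwhile turn on foetal genes such as natriuretic peptides and turn down the enzymes of fatty acid oxidation, the main fuel pathway of the adult heart, together with calcium pumps and ion channels. Comparing 4 with 2 weeks asks which of these programmes were still at their earlier level and which had moved.

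Values are FPKM (fragment counts corrected for transcript length and for how much each library was sequenced), tested as log2(FPKM + 0.5) over 12589 genes with limma, and a gene is called where its Benjamini-Hochberg adjusted p is under 0.05. Differences are 4 minus 2 weeks on that log2 scale, with the standard error (SE) of the fit, so positive values are higher at 4 weeks and the change of low genes is understated. In the TAC hearts 14834 to 15374 genes were above 0. Fragment totals are unknown. Steps between the lowest values of 117 genes gave relative depths of 0.895 to 1.18. Between both hearts of a TAC group Pearson's r was 0.963 to 0.977 across genes, which are not independent replicates. Myh6, the adult heart muscle myosin, was 2494 and 3141 FPKM in control and 3100 and 2323 FPKM in CKO hearts at 2 weeks. At 4 weeks Myh6 was 3675 and 4090 FPKM and then 3873 and 4585 FPKM. It was called higher at 4 weeks, by 0.56 (limma adjusted p = 0.0055). That call was lost without hearts 11 and 41 together and without the hearts high in the atrial gene Myl7. Esr1, part of the transgene, was at most 0.266 FPKM in the 4 control hearts. In CKO hearts Esr1 was 197 and 395 FPKM at 2 weeks and 529 and 752 FPKM at 4 weeks. Averaged over genotypes it was called higher at 4 weeks, by 0.64 (limma adjusted p = 0.037), a call lost under 12 of 18 alternatives. Wnt5a was 1.76 and 1.58 FPKM in control and 1.46 and 1.04 FPKM in CKO hearts at 2 weeks, and 2.06 and 1.68 and then 1.57 and 0.853 FPKM at 4 weeks. Its difference between the times was 0.04 ± 0.15 (SE, limma adjusted p = 0.89). A pair of libraries stood apart. Heart 11 held Myl7, an atrial myosin chain, at 72.6 FPKM against at most 1.66 in the other TAC hearts, and heart 41 held the haemoglobin gene Hba-a1 at 90.6 FPKM against 588 to 2184 in the others.

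Matrix, fibroblast and cell division genes were lower at 4 than at 2 weeks after TAC. Higher were genes that burn fatty acids, build the respiratory chain or move calcium. Averaged over the genotypes, limma called 3121 of 12589 genes (24.8%), 1622 higher (12.9%) and 1499 lower (11.9%) at 4 weeks, and the median over all tested genes was 0.02. Within controls 272 genes were called (2.16%), 136 in each direction (1.08% each). Within CKO hearts 1876 were called (14.9%), 892 higher (7.09%) and 984 lower (7.82%). The count averaged over genotypes was 1619 without heart 31. That of controls was 6, 47, 148 and 1 without hearts 1, 2, 11 and 32, and that of CKO hearts 701, 203 and 1229 without hearts 3, 31 and 41. With only the groups compared in the fit, 1 gene was called in control and 3 in CKO hearts.

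**Figure D1:**
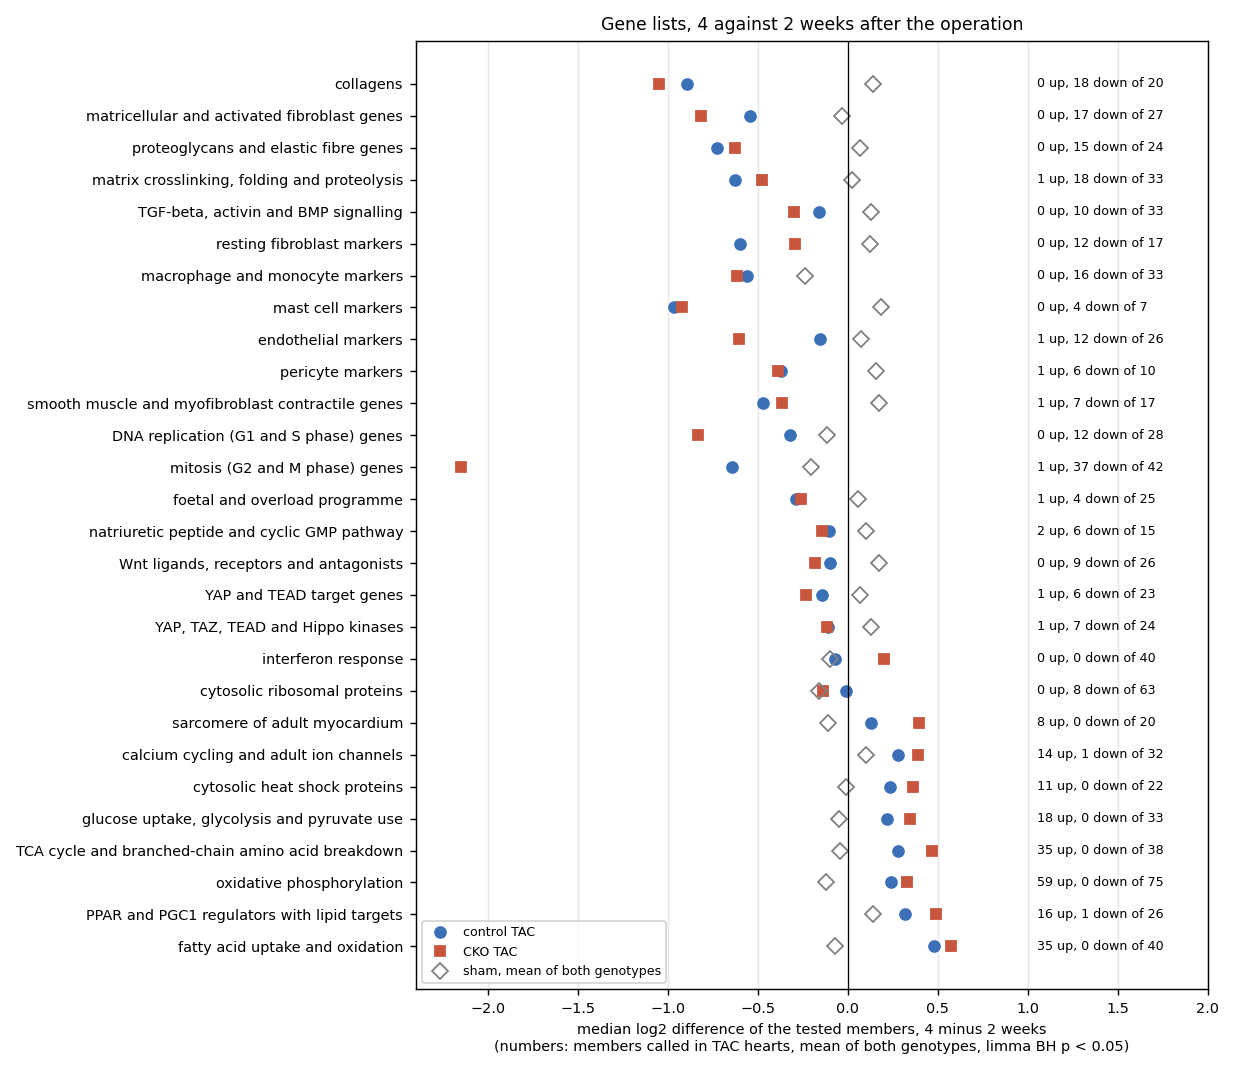
Median log2 difference (x axis, 4 minus 2 weeks) of the tested members of 28 gene lists in control TAC hearts (circles), CKO TAC hearts (squares) and sham hearts averaged over genotypes (open diamonds), with the number of members called higher and lower in TAC hearts averaged over genotypes. Matrix, macrophage, mast cell and cell division lists lie left of 0 and metabolic lists right of 0 in both genotypes, and the sham medians shown lie between -0.24 and 0.18.

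The matrix genes fell in both genotypes. Eln (mm10 chromosome 5, 134702593 to 134747323, minus strand) encodes elastin, the elastic fibre protein of vessels and scar. It was 65.7 and 65.8 FPKM in control hearts at 2 weeks and 25.2 and 27.2 at 4 weeks, and in CKO hearts 38.7 and 35.3 and then 10.6 and 13.5. All 4 hearts at 4 weeks were below all 4 hearts at 2 weeks. The CKO hearts at 4 weeks lay within or just under the 10.8 to 16.4 FPKM of CKO sham hearts, while the control hearts stayed above the 9.91 to 12.8 FPKM of control sham hearts. Averaged over genotypes Eln fell by 1.45 ± 0.09 (SE, limma adjusted p = 1.7e-06). The difference was -1.31 ± 0.13 in control and -1.58 ± 0.13 in CKO hearts.

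Postn (chromosome 3, 54361109 to 54391037, plus strand) encodes periostin, which activated fibroblasts secrete. Its level in control hearts was 358 and 413 FPKM at 2 weeks and 128 and 119 FPKM at 4 weeks, against 10.9 to 20.6 FPKM in control sham hearts. In CKO hearts it was 172 and 225 FPKM and then 44.6 and 23.5 FPKM, against 18.8 to 22.3 FPKM in CKO sham hearts. Each genotype's times were apart, and every TAC heart was above its own sham hearts. Postn fell by 2.11 ± 0.17 (SE, limma adjusted p = 1.2e-05), and the difference was -1.64 ± 0.23 in control and -2.58 ± 0.23 in CKO hearts. The call of Postn within controls was lost without heart 1 or 32, without all hearts holding at least 10 FPKM of Myl7, and with only the groups compared, with an adjusted p of up to 0.14 by limma. Because RNA came from heart tissue of mixed cell types, fewer cells of a type and less RNA per cell cannot be told apart, here or for any gene below.

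**Figure D2:**
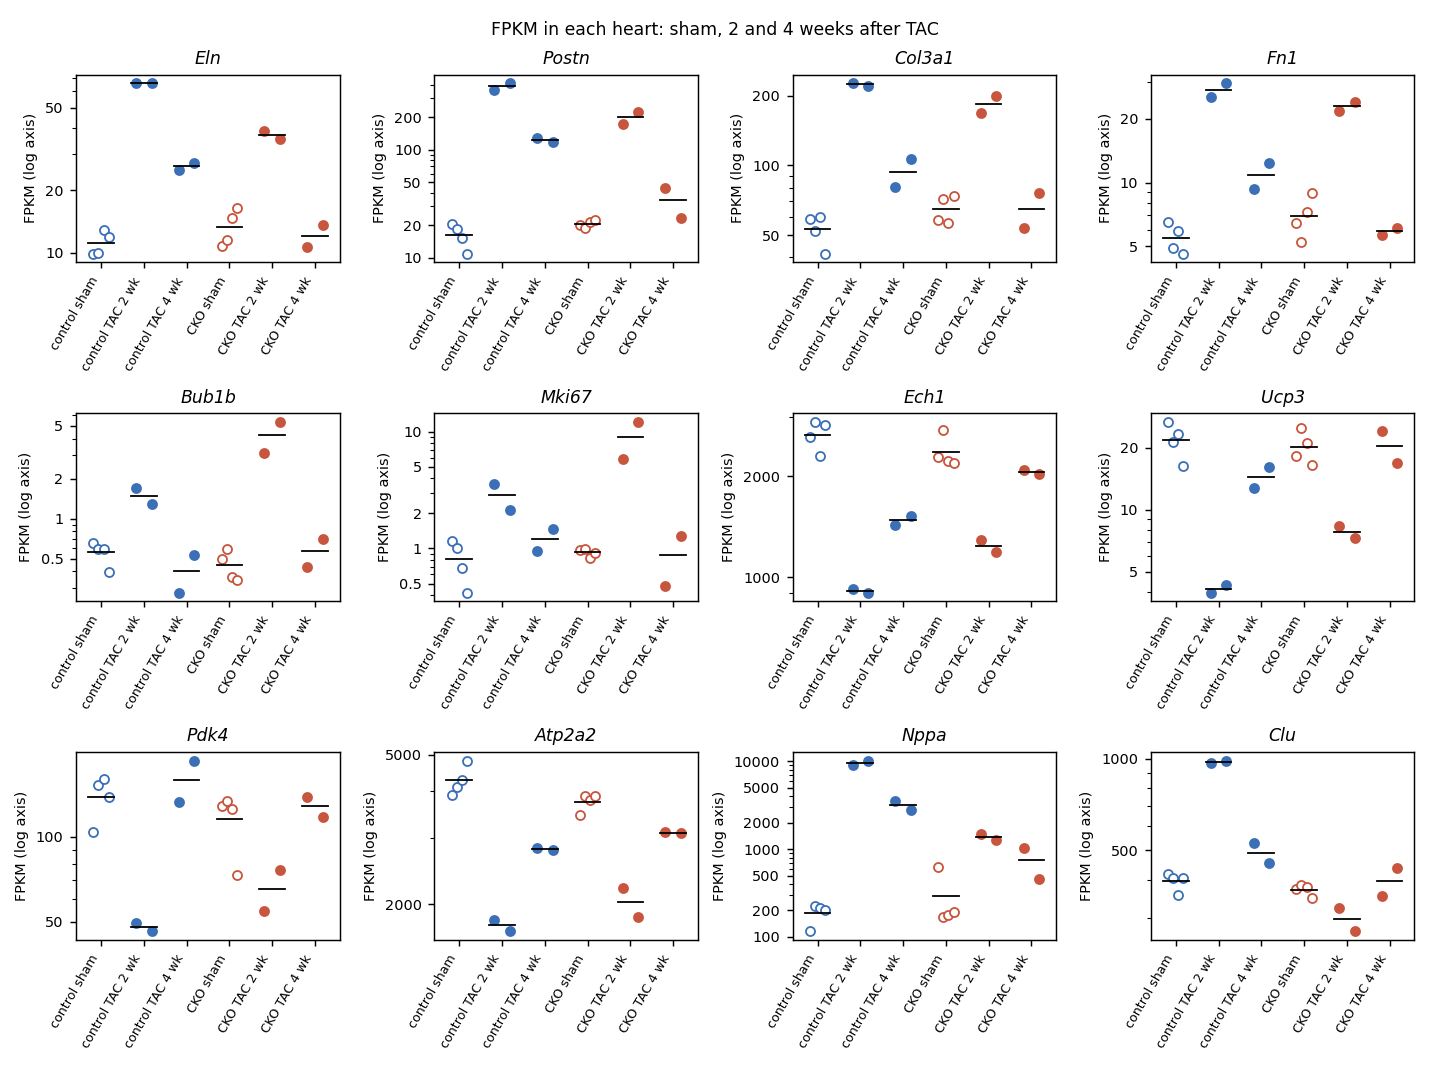
FPKM of 12 genes (y axis, log scale) in each heart, by genotype: open circles are the 4 sham hearts of both times, filled circles the 2 hearts at 2 or 4 weeks after TAC, and bars the group means. Eln at 4 weeks was 25.2 and 27.2 FPKM in control hearts, above the sham hearts, and 10.6 and 13.5 FPKM in CKO hearts, near theirs.

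Of 20 tested collagen genes 18 fell and 0 rose, with a median of -0.998, beside 11.9% lower among all genes. Within controls 9 fell and within CKO hearts 16. Col3a1, a fibrillar collagen of young scar, was 227 and 222 FPKM in control hearts at 2 weeks and 80.5 and 107 FPKM at 4 weeks. In CKO hearts it was 169 and 200 FPKM and then 53.4 and 75.7 FPKM. Both genotypes were lower at 4 weeks without overlap, and the difference was -1.40 ± 0.15 (SE, limma adjusted p = 1.5e-04). Col5a2, whose chain helps start collagen fibrils, fell by 1.23 ± 0.10 (SE, limma adjusted p = 1.2e-05).

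Of 27 matricellular and activated fibroblast genes 17 fell and 0 rose. Fn1, the fibronectin gene, was 25.3 and 29.5 FPKM in control hearts at 2 weeks and 9.34 and 12.4 FPKM at 4 weeks, with 21.7 and 24.1 FPKM and then 5.64 and 6.12 FPKM in CKO hearts. It fell by 1.59 ± 0.12 (SE, limma adjusted p = 1.2e-05). Sparc, a collagen-binding glycoprotein, fell by 1.18 ± 0.10, and Cthrc1, which marks activated fibroblasts, by 1.85 ± 0.25. Cthrc1 was 12.4 and 6.50 FPKM in control hearts at 2 weeks and 1.00 and 2.82 FPKM at 4 weeks. The CKO hearts held less of it at both times, 1.75 and 1.67 FPKM and then 0.155 and 0.284 FPKM.

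Proteins that assemble the fibres moved with them. Of 24 proteoglycan and elastic fibre genes 15 fell and 0 rose, among them Aspn (asporin) at -1.25 ± 0.12 and Lum (lumican), a proteoglycan that binds collagen fibrils, at -1.04 ± 0.11. Of 33 genes for crosslinking, folding and proteolysis of matrix 18 fell and 1 rose, among them the lysyl oxidase relative Loxl2 at -1.27 ± 0.15. Ppic, a prolyl isomerase of the secretory pathway, had a small spread. It was 74.6 and 74.7 FPKM in control and 72.7 and 73.4 FPKM in CKO hearts at 2 weeks, and 43.8 and 43.0 FPKM and then 26.0 and 28.1 FPKM at 4 weeks. All 4 hearts at 2 weeks lay within 3 FPKM of each other, and Ppic fell by 1.10 ± 0.07 (SE, limma adjusted p = 1.7e-06).

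Set against the sham hearts of the same genotype, the median collagen level was 1.44 higher (log2) in control hearts at 2 weeks and 0.78 at 4 weeks, and 1.215 and then 0.10 in CKO hearts. For the matricellular genes these medians were 1.99 and 1.025 in control and 0.70 and 0.09 in CKO hearts. These medians carry no test.

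Signals and receptors that act on fibroblasts were also lower. Of 33 TGF-beta, activin and BMP genes 10 fell and 0 rose, among them the ligand genes Tgfb3 at -0.65 ± 0.09 and Tgfb1 at -0.72 ± 0.14, and the receptor gene Tgfbr2 at -0.61 ± 0.11. Fstl1, a secreted follistatin relative of fibroblasts, was 177 and 199 FPKM in control hearts at 2 weeks and 98.7 and 79.9 FPKM at 4 weeks, with 121 and 163 and then 56.0 and 46.2 FPKM in CKO hearts. It fell by 1.27 ± 0.12 (SE, limma adjusted p = 7.8e-05), the smallest p of that list. Igf1, a growth factor made by interstitial cells, fell by 1.12 ± 0.11 (SE, limma adjusted p = 7.8e-05), from 6.81 to 10.2 FPKM over the 4 hearts at 2 weeks to 2.62 to 5.04 FPKM at 4 weeks. Markers of resting fibroblasts moved with the matrix genes, since 12 of 17 fell and 0 rose, with a median of -0.45, and Dpt at -0.56 ± 0.09. Their summed level was 1268 to 1704 FPKM at 2 weeks and 1252 to 1515 FPKM at 4 weeks, so that those ranges overlapped. The part of these markers in the fall of matrix genes was not tested.

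Among Wnt genes, the family of the deleted ligand, 9 of 26 fell and 0 rose, with a median of -0.12. The smallest p belonged to Sfrp1, a secreted antagonist. Sfrp1 was 18.1 and 19.7 FPKM in control hearts at 2 weeks and 9.93 and 7.38 FPKM at 4 weeks, and 10.2 and 11.7 FPKM and then 4.91 and 4.60 FPKM in CKO hearts. It fell by 1.11 ± 0.15 (SE, limma adjusted p = 4.3e-04). Frzb, a relative of Sfrp1, fell by 1.07 ± 0.16 (SE, limma adjusted p = 9.3e-04). Fzd4, a Wnt receptor of endothelium, fell by 0.40 ± 0.11 (SE, limma adjusted p = 0.021). That call was lost without heart 2, 3, 31 or 32 and with only the groups compared, with an adjusted p of up to 0.0996 by limma.

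Macrophage and mast cell markers were lower at 4 weeks. Of 33 macrophage and monocyte markers 16 fell and 0 rose, with a median of -0.62. In sham hearts their median from 2 to 4 weeks was -0.24, with 0 called. Relative to that sham change, the median was 0.03 within controls and -0.78 within CKO hearts. In that comparison 0 were called within controls and 2 were lower within CKO hearts. Csf1r, the growth factor receptor that macrophages need, was 28.9 and 28.0 FPKM in control and 25.9 and 31.0 FPKM in CKO hearts at 2 weeks. At 4 weeks it was 17.0 and 17.4 FPKM and 14.2 and 22.9 FPKM, below all 2-week hearts, and it fell by 0.67 ± 0.14 (SE, limma adjusted p = 0.0052). F13a1 and Mrc1, markers of tissue-resident macrophages, fell by 1.05 ± 0.19 and by 0.75 ± 0.11. Of 7 tested mast cell markers 4 fell and 0 rose. Tpsb2, a mast cell tryptase, was 2.66 and 2.16 FPKM in control and 1.36 and 2.33 FPKM in CKO hearts at 2 weeks, and 0.245 to 0.778 FPKM in the 4 hearts at 4 weeks, all under the 0.798 to 2.33 FPKM of sham hearts. Tpsb2 fell by 1.40 ± 0.18 (SE, limma adjusted p = 4.2e-04).

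Endothelial, pericyte and smooth muscle lists had 12 of 26, 6 of 10 and 7 of 17 members lower, and 1 member higher in each. Cdh5, the cadherin of endothelial junctions, was 74.3 and 81.7 FPKM in control hearts at 2 weeks and 58.0 and 63.5 FPKM at 4 weeks, and 102 and 117 FPKM and then 51.8 and 63.6 FPKM in CKO hearts. It fell by 0.64 ± 0.12 (SE, limma adjusted p = 0.0023). The endothelial median was -0.16 in control and -0.61 in CKO hearts, with 0 and 10 members called lower, and none of them was called for the difference between genotypes.

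Genes of mitosis showed the most negative median of the lists drawn in the plot of list medians. Mitotic genes are transcribed in G2 through the cell cycle homology region (TTTGAA and its relative TTCGAA), which the DREAM and MuvB complexes read, and through CCAAT boxes, which NF-Y binds. The promoters of 4 members, those with the smallest p that have a RefSeq entry (GRCm38.p6, 250 bases before to 50 bases after the start), are printed to show these letters. The member Tpx2 has no entry in that table. Capitals mark these 3 motifs on either strand, and none of them contains another. The lines give Bub1b (chr2:118597961-118598260, plus strand), Mki67 (chr7:135716330-135716629, minus strand), Prc1 (chr7:80294201-80294500, plus strand) and Kif23 (chr9:61946750-61947049, minus strand).
Bub1b: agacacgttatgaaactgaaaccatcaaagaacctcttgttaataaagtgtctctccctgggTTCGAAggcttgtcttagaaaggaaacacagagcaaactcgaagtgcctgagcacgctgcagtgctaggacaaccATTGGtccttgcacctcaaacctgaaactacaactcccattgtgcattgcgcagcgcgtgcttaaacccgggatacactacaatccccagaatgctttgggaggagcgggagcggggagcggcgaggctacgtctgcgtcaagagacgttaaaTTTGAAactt
Mki67: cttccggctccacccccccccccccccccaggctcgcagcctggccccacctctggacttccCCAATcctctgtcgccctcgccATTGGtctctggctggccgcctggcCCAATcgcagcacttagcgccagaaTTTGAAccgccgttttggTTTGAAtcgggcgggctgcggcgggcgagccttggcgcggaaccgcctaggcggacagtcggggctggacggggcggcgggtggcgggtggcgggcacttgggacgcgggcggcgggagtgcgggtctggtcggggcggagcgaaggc
Prc1: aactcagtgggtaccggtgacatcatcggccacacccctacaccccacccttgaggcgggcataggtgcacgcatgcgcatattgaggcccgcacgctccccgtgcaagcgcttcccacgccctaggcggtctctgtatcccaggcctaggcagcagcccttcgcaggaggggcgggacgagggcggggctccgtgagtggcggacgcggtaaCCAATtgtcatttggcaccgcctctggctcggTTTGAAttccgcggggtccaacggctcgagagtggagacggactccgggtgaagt
Kif23: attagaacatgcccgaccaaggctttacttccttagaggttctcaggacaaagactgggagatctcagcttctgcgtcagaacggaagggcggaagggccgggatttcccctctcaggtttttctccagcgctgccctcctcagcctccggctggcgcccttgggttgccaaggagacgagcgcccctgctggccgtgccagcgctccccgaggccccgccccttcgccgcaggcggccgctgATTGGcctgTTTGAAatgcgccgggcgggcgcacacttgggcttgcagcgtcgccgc
Each of the 4 held at least 1 CCAAT and at least 1 TTTGAA, and Mki67 held 3 and 2. Over the 36 of 42 tested mitosis genes with an entry, 72.2% held CCAAT, 80.6% TTTGAA and 5.56% TTCGAA. Over the 27025 genes of the table, taking the first entry of each, these shares were 37.9%, 18.1% and 1.57%. Over the 8954 tested genes with an entry they were 38.6%, 11.4% and 2.07%. A match is a run of letters and says nothing of whether a factor was bound.

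Of the 42 tested mitosis genes 37 fell and 1 rose, with a median of -1.41. Bub1b, a kinase of the spindle checkpoint, was 1.69 and 1.28 FPKM in control hearts at 2 weeks and 0.277 and 0.530 FPKM at 4 weeks. In CKO hearts it was 3.14 and 5.36 FPKM and then 0.428 and 0.707 FPKM. The 2-week hearts were all higher than the 4-week hearts, and the CKO hearts at 2 weeks were the highest. Bub1b fell by 1.63 ± 0.18 (SE, limma adjusted p = 1.5e-04), with -1.14 ± 0.26 in control and -2.13 ± 0.26 in CKO hearts. It was the only member called within controls, and no mitosis gene was when any 1 control heart was left out.

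Mki67, the proliferation antigen of dividing cells, was 3.54 and 2.15 FPKM in control hearts at 2 weeks and 0.943 and 1.47 FPKM at 4 weeks, and 5.85 and 12.1 FPKM and then 0.481 and 1.28 FPKM in CKO hearts. Sham hearts held 0.420 to 1.15 FPKM of it. At 4 weeks heart 2 (control) and heart 41 (CKO) lay above the sham range, and hearts 1 and 3 lay within it. Mki67 fell by 1.86 ± 0.23 (SE, limma adjusted p = 3.0e-04). Prc1, which bundles microtubules of the central spindle, fell by 2.14 ± 0.28, and Kif23, its partner motor in cytokinesis, by 1.59 ± 0.21. Ccnb2 (cyclin B2) fell by 2.08 ± 0.33 and Top2a (a topoisomerase) by 1.97 ± 0.33.

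The member that rose was Pttg1 (securin), at 0.41 ± 0.09 (SE, limma adjusted p = 0.0076), which stood at 116 to 146 FPKM at 2 weeks and 141 to 201 FPKM at 4 weeks, far above the other members. In heart 31 each of the printed genes was higher than in heart 13, with Prc1 at 15.4 against 5.97 FPKM. Within CKO hearts 39 members fell, with a median of -2.15, and 22 fell without heart 31, with a median of -1.72. Within controls 1 fell, with a median of -0.64, which was -0.32 without heart 11. No mitosis gene was called for the difference between genotypes (CKO minus control), but 41 of 42 members were below 0 there, with a median of -1.50. At an unadjusted p under 0.05 by limma were 35 of the 42, beside 658 of 12589 genes. These members come from the same hearts and are not independent. Most members are low, and with a filter of 3 FPKM 1 fell and 1 rose.

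**Figure D3:**
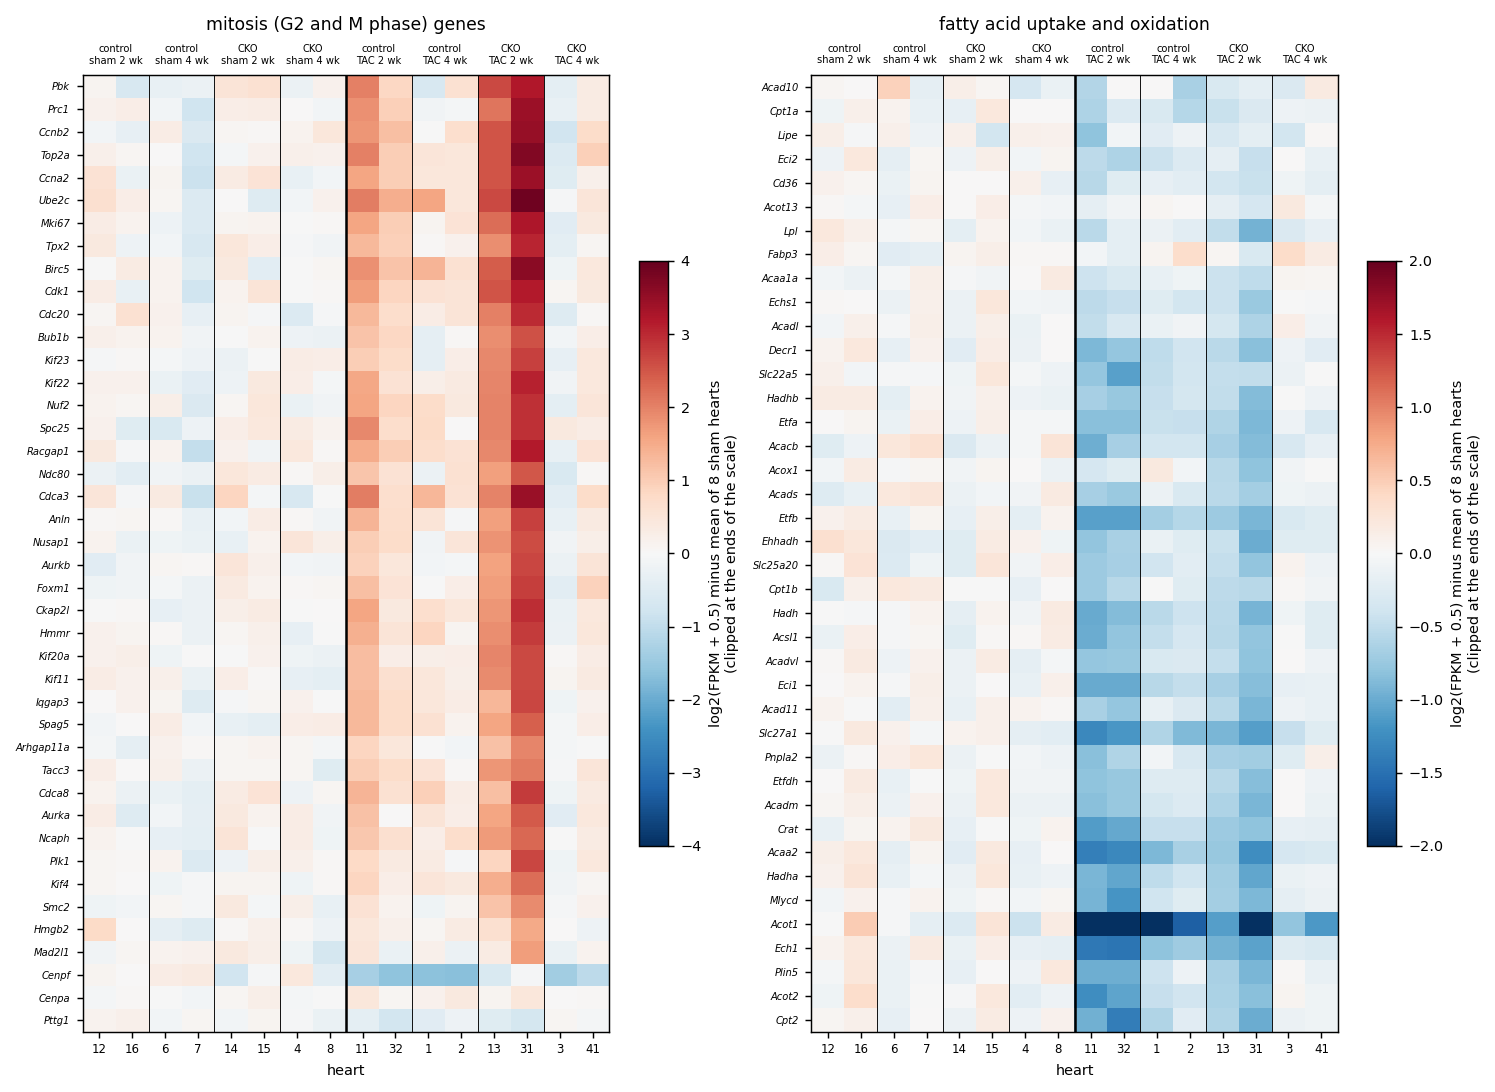
Level of each tested gene of mitosis (left) and of fatty acid uptake and oxidation (right), as log2(FPKM + 0.5) minus the mean of the 8 sham hearts (colour), in the 16 sham and TAC hearts (columns, named by heart). Red columns of mitosis genes are the 4 hearts at 2 weeks after TAC, most intense in CKO heart 31, and blue columns of fatty acid genes are the same hearts with paler blue at 4 weeks.

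Genes of DNA replication were lower as well in the mean of the genotypes, with 12 of 28 lower and 0 higher and a median of -0.57. Within controls 0 were called, with a median of -0.32, and within CKO hearts 13 were lower, with a median of -0.83. Relative to the change in sham hearts, 3 were lower in the mean of the genotypes and 0 were called within controls. Tk1, thymidine kinase of S phase, was 3.63 and 2.19 FPKM in control and 5.66 and 9.02 FPKM in CKO hearts at 2 weeks, and 0.929 to 1.42 FPKM in the 4 hearts at 4 weeks. It fell by 1.55 ± 0.21 (SE, limma adjusted p = 4.9e-04). Ccnd1, the cyclin that starts G1 progression, fell by 0.75 ± 0.15 from a higher level, 45.6 to 75.2 FPKM at 2 weeks. Against the sham hearts of the same genotype the median of mitosis genes was 1.025 higher (log2) in control hearts at 2 weeks and 0.34 at 4 weeks, and 2.20 and then 0.0049 in CKO hearts.

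Fatty acid oxidation genes rose. Ech1 (chromosome 7, 28825217 to 28832247, plus strand), an isomerase for unsaturated fatty acids, was 923 and 901 FPKM in control hearts at 2 weeks and 1432 and 1519 FPKM at 4 weeks. In CKO hearts it was 1290 and 1186 FPKM and then 2090 and 2027 FPKM. Within each genotype the 4-week hearts were higher, and all 8 lay under the 2193 to 2896 FPKM of sham hearts. The rise of Ech1 was 0.71 ± 0.08 (SE, limma adjusted p = 1.5e-04), with 0.69 ± 0.11 in control and 0.73 ± 0.11 in CKO hearts. Under quantile normalization the rise of Ech1 was 0.43.

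Of 40 tested genes of fatty acid uptake and oxidation 35 rose and 0 fell, with a median of 0.50, beside 12.9% higher among all genes. Within controls 13 rose and within CKO hearts 32. Crat (carnitine acetyltransferase), which buffers acetyl units, was 80.9 and 86.4 FPKM in control hearts at 2 weeks and 128 in both at 4 weeks, and 107 and 101 FPKM and then 158 and 156 FPKM in CKO hearts. The rise was 0.60 ± 0.06 (SE, limma adjusted p = 1.4e-04). Mlycd (malonyl-CoA decarboxylase), which relieves the block on fatty acid entry, rose by 0.69 ± 0.07, and Hadha, a subunit of the trifunctional protein of beta-oxidation, by 0.63 ± 0.09.

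Regulators and targets of the PPAR pathway went the same way, with 16 of 26 higher and 1 lower. Within controls 3 rose and 0 fell, and within CKO hearts 13 rose and 2 fell. Relative to the change in sham hearts, 5 rose and 1 fell in the mean of the genotypes. Ppara, the nuclear receptor that drives fatty acid genes, was 8.15 and 8.39 FPKM in control and 8.77 and 8.04 FPKM in CKO hearts at 2 weeks, and 13.3 and 12.5 FPKM and then 14.3 and 15.1 FPKM at 4 weeks. It rose by 0.69 ± 0.12 (SE, limma adjusted p = 0.0017). Ucp3, an uncoupling protein and PPAR target, was 3.97 and 4.30 FPKM in control hearts at 2 weeks and 12.8 and 16.1 FPKM at 4 weeks, and 8.32 and 7.32 FPKM and then 24.1 and 16.9 FPKM in CKO hearts. That rise was 1.50 ± 0.22 (SE, limma adjusted p = 6.2e-04). Pdk4, the kinase that shuts pyruvate dehydrogenase, rose by 1.35 ± 0.23 (SE, limma adjusted p = 0.0017). It went from 49.4 and 46.1 FPKM in control hearts to 133 and 186 FPKM, within or above the 104 to 161 FPKM of control sham hearts. Pdp2, the phosphatase that opens pyruvate dehydrogenase, rose by 0.84 ± 0.12 alongside.

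The rest of mitochondrial metabolism rose by smaller amounts. In the tricarboxylic acid cycle and branched-chain amino acid breakdown 35 of 38 rose and 0 fell, with a median of 0.39. Within controls 1 rose and within CKO hearts 33, with medians of 0.28 and 0.47. Bckdha, a subunit of the branched-chain ketoacid dehydrogenase, was 151 and 152 FPKM in control hearts at 2 weeks and 230 and 217 FPKM at 4 weeks, and 154 and 131 FPKM and then 239 and 278 FPKM in CKO hearts. It rose by 0.71 ± 0.07 (SE, limma adjusted p = 7.8e-05). Of 75 oxidative phosphorylation genes 59 rose in the mean of the genotypes (3 within controls, 32 within CKO hearts) and 0 fell, with a median of 0.28. Quantile normalization, which gives every library the same distribution of values, left 12 of those 75 higher and 0 lower with a median of 0.06. Of 33 genes of glucose uptake, glycolysis and pyruvate use 18 rose in the mean (3 within controls, 12 within CKO hearts) and 0 fell.

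Genes of calcium cycling and adult ion channels rose in 14 of 32 cases and fell in 1, in the mean of the genotypes. Within controls 4 rose and 0 fell, and within CKO hearts 11 rose and 1 fell. Relative to the change in sham hearts, 5 rose and 1 fell in the mean of the genotypes, and 0 were called within controls. Atp2a2 (chromosome 5, 122453513 to 122502225, minus strand) encodes SERCA2, the pump that returns calcium to the sarcoplasmic reticulum. It was 1821 and 1694 FPKM in control hearts at 2 weeks and 2826 and 2785 FPKM at 4 weeks, and 2211 and 1855 FPKM and then 3111 and 3087 FPKM in CKO hearts. At both times the TAC hearts were below the 3460 to 4811 FPKM of sham hearts, the 4-week hearts less so. The rise was 0.64 ± 0.07 (SE, limma adjusted p = 1.4e-04), and 0.41 under quantile normalization. Hrc, a calcium-binding protein of the sarcoplasmic reticulum, rose by 0.81 ± 0.10, and the potassium channel genes Kcnh2 and Kcnj2, which carry repolarizing and resting currents, by 0.58 ± 0.09 and by 0.51 ± 0.10.

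Of 20 sarcomere genes 8 rose and 0 fell, with a median of 0.25, which was 0.05 with 5 higher under quantile normalization. Rpl3l, a ribosomal protein of adult striated muscle, was 85.9 and 56.2 FPKM in control hearts at 2 weeks and 133 and 157 FPKM at 4 weeks, and 120 and 115 FPKM and then 203 and 214 FPKM in CKO hearts. It rose by 0.94 ± 0.14 (SE, limma adjusted p = 6.8e-04). Of 22 cytosolic heat shock and chaperone genes 11 rose and 0 fell in the mean of the genotypes. Within controls 1 rose and within CKO hearts 8. Relative to the change in sham hearts, 4 rose in that mean. The medians of that comparison were -0.03 within controls and 0.54 within CKO hearts. Cryab, a small heat shock protein of muscle that is also in the overload list, was 1940 and 1746 FPKM in control hearts at 2 weeks and 2177 and 2894 FPKM at 4 weeks, and 1777 and 1869 FPKM and then 2902 and 3172 FPKM in CKO hearts. Its 4-week hearts were all above its 2-week hearts, and 3 of the 4 were above the 1955 to 2599 FPKM of sham hearts. The rise of Cryab was 0.59 ± 0.09 (SE, limma adjusted p = 8.6e-04), and 0.38 under quantile normalization. Hspd1, the mitochondrial chaperonin, rose by 0.66 ± 0.09.

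The foetal and overload list held calls in both directions. Of 25 tested members 4 fell and 1 rose (Cryab), beside 24.8% called among all genes, and the median was -0.28. Nppa (chromosome 4, 148000722 to 148002079, plus strand) encodes atrial natriuretic peptide. It was 9118 and 10098 FPKM in control hearts at 2 weeks and 3547 and 2761 FPKM at 4 weeks, and 1489 and 1278 FPKM and then 1041 and 454 FPKM in CKO hearts. The 4-week hearts were lower within each genotype, and the control hearts were above the CKO hearts at both times. Nppa fell by 1.31 ± 0.39 (SE, limma adjusted p = 0.025). That call was lost without heart 2, 11, 13, 31, 32 or 41 in turn and without hearts 11 and 41 together, with an adjusted p of up to 0.138 by limma.

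Other overload genes were not called. Nppb (brain natriuretic peptide) was 3525 and 4268 FPKM in control hearts at 2 weeks and 3380 and 2655 FPKM at 4 weeks, and 2052 and 2633 FPKM and then 1462 and 1247 FPKM in CKO hearts, a difference of -0.58 ± 0.28 (SE, limma adjusted p = 0.15). Acta1, the skeletal actin of foetal myocardium, stood at -0.09 ± 0.45 (SE, limma adjusted p = 0.91), with 2193 to 3533 FPKM over the 4 control and 841 to 1759 FPKM over the 4 CKO hearts against 47.7 to 229 FPKM in sham hearts. Ankrd1, a stretch-responsive muscle protein, stood at -0.37 ± 0.19 (SE, limma adjusted p = 0.18), with 4700 to 6475 FPKM in control and 2228 to 3487 FPKM in CKO hearts. Acta1 was far above sham at both times in both genotypes. A p that misses the threshold does not show that any of these genes held its level.

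YAP, the co-activator that the series title joins with Wnt5a, works with TEAD factors. Of 23 tested YAP and TEAD targets 6 fell and 1 rose, with a median of -0.12. Of 24 genes of YAP, TAZ, TEAD and the Hippo kinases 7 fell and 1 rose. Among all genes 24.8% were called, 11.9% lower and 12.9% higher. Within controls 1 and within CKO hearts 3 members of each list were called lower, with 0 higher. Tead2 was 4.29 and 3.79 FPKM in control and 4.89 and 6.33 FPKM in CKO hearts at 2 weeks, and 1.43 to 2.80 FPKM over the 4 hearts at 4 weeks, without overlap. It fell by 1.01 ± 0.19 (SE, limma adjusted p = 0.0030). Among targets, Anxa3 (an annexin) fell by 0.66 ± 0.10 and Axl (a receptor kinase) by 0.55 ± 0.12. The target list also holds Ccnd1 and Birc5, which are cell cycle genes.

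The change with time was compared between genotypes directly. Limma called 1 of 12589 genes (0.00794%), and 658 were at an unadjusted p under 0.05. That gene was Clu (chromosome 14, 65968483 to 65981547, plus strand), which encodes clusterin, a secreted chaperone. Clu was 965 and 984 FPKM in control hearts at 2 weeks and 528 and 453 FPKM at 4 weeks, while CKO hearts held 323 and 270 FPKM and then 354 and 436 FPKM. It fell in control hearts, with -0.99 ± 0.12, and rose in CKO hearts, with 0.41 ± 0.12. The call within controls was lost without heart 32 (limma adjusted p = 0.078), and that within CKO hearts without heart 31 or 41 (limma adjusted p = 0.30 and 0.22). At 4 weeks the genotypes were closer, and sham hearts held 349 to 416 FPKM. The difference between the changes was 1.41 ± 0.17 (SE, limma adjusted p = 0.013). The call was lost without heart 2, 31 or 32, without hearts 11 and 41 together, without all hearts holding at least 10 FPKM of Myl7, and with only the groups compared, with an adjusted p of up to 0.359 by limma. The count of called genes was 20 without heart 3, 5 without heart 41, 3 without heart 1 or 13, 2 without heart 11 and 0 without heart 32.

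Of the 272 genes called in control and the 1876 called in CKO hearts, 205 were shared, which is 75.4% of the first and 10.9% of the second, and 203 of them moved the same way. Across 12589 genes Pearson's r between the changes of the genotypes was 0.39 and Spearman's rho 0.65, where genes of the same hearts are not independent. Saa3, Cep55 and Nfya followed Clu by p without passing the threshold. Nfya, a subunit of the NF-Y factor named above, was 5.41 and 6.55 FPKM in control hearts at 2 weeks and 5.67 and 6.89 FPKM at 4 weeks, and 8.70 and 9.37 FPKM and then 4.34 and 4.39 FPKM in CKO hearts. Its difference between genotypes was -1.04 ± 0.19 (SE, limma adjusted p = 0.18).

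**Figure D4:**
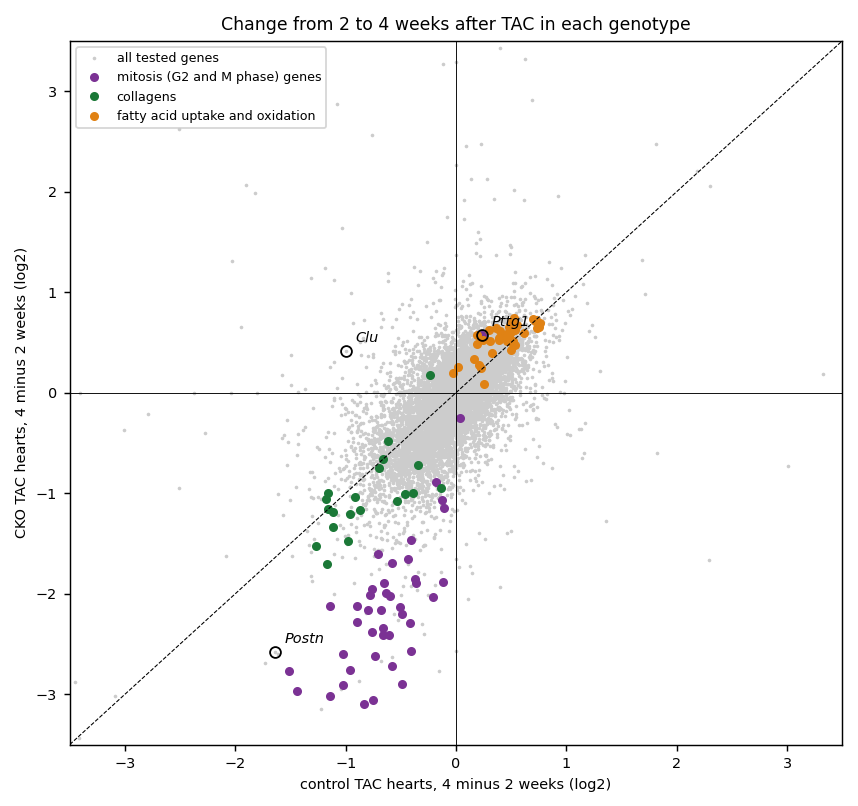
Change from 2 to 4 weeks after TAC (log2, 4 minus 2 weeks) in control hearts (x axis) and CKO hearts (y axis) for each tested gene, with 39 genes outside the drawn range of 3.5. Collagens lie near the dashed line of equal change, fatty acid genes lie near it in the upper right, most mitosis genes lie below it, and Clu lies in the upper left.

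In sham hearts, 4 against 2 weeks gave 0 called genes of 12589 (0%) by limma, with 1894 at an unadjusted p under 0.05. The change in TAC hearts differed from that in sham hearts for 1675 genes (13.3%), 853 higher (6.78%) and 822 lower (6.53%). Within controls that comparison called 1 gene (0.00794%), Eln, with 1718 at an unadjusted p under 0.05. Within CKO hearts it called 823 (6.54%), 341 higher (2.71%) and 482 lower (3.83%). Whether the genotypes differ in this was not tested. Eln stood at -1.83 ± 0.13 in that comparison, Fn1 at -1.76 ± 0.18 and Bub1b at -1.40 ± 0.26. By list, 18 of 20 collagens were lower, 26 of 42 mitosis genes lower and 1 higher, 27 of 40 fatty acid genes higher and 52 of 75 oxidative phosphorylation genes higher, while 2 of 33 macrophage markers were lower. Those counts are of the mean of the genotypes. Within controls 0 genes of the collagen, mitosis, fatty acid and oxidative phosphorylation lists were called, with medians of -0.95, -0.36, 0.51 and 0.39. Within CKO hearts 13 collagens were lower, 27 mitosis genes lower and 1 higher, and 15 fatty acid and 22 oxidative phosphorylation genes higher, with medians of -1.38, -1.98, 0.58 and 0.44. This comparison shares the TAC hearts with those above. Its count was 1022, 762, 967, 778, 919, 781 and 1001 without hearts 2, 6, 8, 15, 16, 31 and 32, and 676 without all hearts holding at least 10 FPKM of Myl7.

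Interferon genes were not called as a list, with 0 of 40 higher and 0 lower and 0 of 20 antigen presentation genes in either direction. Heart 41 stood apart in them. Gbp10, a guanylate-binding protein induced by interferon, was 20.8 FPKM in heart 41 and 0.103 to 0.780 FPKM in the other 7 hearts, and Cd274 (the checkpoint ligand PD-L1) was 43.5 FPKM against 3.41 to 7.20 FPKM. The summed level of the 40 interferon genes was 263 to 2738 FPKM over the 2 CKO hearts at 4 weeks and 238 to 433 FPKM in sham hearts.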

How the data were processed

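Messenger RNA of 20 hearts was sequenced as stranded libraries from total RNA, per the labels' protocols. The submitters' processing notes name mm10, TopHat2 2.1.1, Bowtie2 and Cuffdiff 2.2.1, with no role for each. The values the authors deposited are FPKM per gene and heart. Fragment counts are not given in the sources used here, so no counting interval is printed.

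Genes averaging 0.5 FPKM or more across 20 hearts were analysed as log2(FPKM + 0.5). One model with 10 group means was fitted in limma 3.58.1 (R 4.3.3, trend, 10 residual degrees of freedom), with two-sided tests and p adjusted by Benjamini-Hochberg over all tested genes. It was tested on simulated data. P-values measure only the spread between these hearts.

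The members and 47 gene lists were chosen with earlier results of these data known. In the mean comparison the genes named are the 12 largest rises and falls (called, mean of at least 1 FPKM in the TAC hearts, no overlap within a genotype), within a genotype the 8 largest, for differences of changes the 10 smallest p, and up to 4 members of each list with the smallest p; the text names a part. Nppb, Acta1, Ankrd1, Ppara, Pttg1, Hadha, Kif23, Angpt1, Ccnb2, Top2a and the check genes were chosen after their values were seen. Gene positions are those of GENCODE M21, promoters those of RefSeq. Python 3.11.15 with matplotlib 3.10.9 and numpy 2.4.6 drew the figures.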

Additional observations from a re-analysis of the deposited data

Results flagged for a closer look

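The change from 2 to 4 weeks differed between TAC and sham hearts, by a test of that difference, for 1675 genes. Those with the smallest p were all lower at 4 weeks in TAC hearts relative to sham hearts: the matrix genes Eln at -1.83, Fn1 at -1.76, Postn at -1.90, Col5a2 at -1.21, Sparc at -1.20 and Aspn at -1.37, the collagen-related secreted protein gene C1qtnf6 at -1.78, the sulfotransferase gene Chst1 at -1.57, Oaf at -1.14 and Ppic at -0.98 (log2). The change after TAC differed between genotypes for 1 gene, Clu, at 1.41.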

How the results depend on the processing

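No paired analysis was possible because each heart number occurs in 1 group only. The count averaged over genotypes kept within 1.5 times under all alternatives other than leaving out a heart, which gave 1619 to 3044. In controls the count was 174 with a prior without trend, 1 with only the groups compared, 12 without all hearts holding at least 10 FPKM of Myl7 and 140 without hearts 11 and 41, an alternative added after seeing the data; leaving out a heart gave 1 to 148. In CKO hearts it was 3 with only the groups compared and 1162 without hearts 11 and 41, and 203 to 1795 when a heart was left out. For the difference between genotypes it was 3 without a filter, 2 with a prior without trend, 2 with only the groups compared, 2 without the Myl7 hearts and 5 without hearts 11 and 41, and 0 to 20 when a heart was left out. For TAC against sham it was 676 without the Myl7 hearts, and 762 to 2045 when a heart was left out. Where a heart is left out, the remaining heart of its group is assumed to vary like the others. Of 215 called results for named genes, 136 were called under every alternative and 79 were not under at least 1. Wnt5a, which was not called, changed sign to -0.023, -0.12 and -0.052 without heart 1, 3 or 31; its highest values were 0.22 without hearts 11 and 41 and 0.19 without heart 41, and it was called in no fit. The median of mitosis genes was -1.91 with a pseudocount of 0.1 and -0.36 with a filter of 3 FPKM. The cause of these changes was not tested. With 2 hearts a group, small changes within a genotype could not be detected.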

Other observations

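Among genes with the largest rises, Mrgprh, an orphan receptor gene, was 0.730 and 0.396 FPKM in control and 1.42 and 0.996 FPKM in CKO hearts at 2 weeks, 2.05 and 1.42 FPKM and then 2.87 and 2.72 FPKM at 4 weeks, and 2.97 to 4.67 FPKM in sham hearts. It rose by 1.02 ± 0.15 (SE, limma adjusted p = 7.6e-04). Il15, a cytokine, rose by 0.65 ± 0.11, and Angpt1, an angiopoietin that stabilizes vessels, by 0.78 ± 0.14; Angpt1 was 4.85 to 5.86 FPKM over the 4 hearts at 2 weeks, 7.59 to 12.1 FPKM at 4 weeks and 13.3 to 24.1 FPKM in sham hearts. Of 4 tested epicardial and mesothelial markers 3 fell, and Wt1 was 2.42 to 3.44 FPKM at 2 weeks and 0.874 to 1.56 FPKM at 4 weeks.

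Several lists moved little or in both directions in the mean of the genotypes. Of 63 cytosolic ribosomal protein genes 8 fell and 0 rose, with a median of -0.08, and under quantile normalization 21 fell and 1 rose. Of 29 endoplasmic reticulum stress genes 4 rose and 2 fell, of 27 p53 and apoptosis genes 4 rose and 5 fell, and of 19 circadian genes 1 rose and 1 fell. Among 26 immediate early genes 1 fell and 0 rose. Of 10 tested neutrophil and acute-phase genes 0 were called by limma in that mean, with 1 at an unadjusted p under 0.05. Within controls 1 rose, Saa3, at 2.29 ± 0.43 (SE, limma adjusted p = 0.019), a call lost under 7 of 13 alternatives. Within CKO hearts 1 member fell. The change of Saa3 differed between genotypes by -3.95 ± 0.61 (SE, limma adjusted p = 0.093), which was not called. Unlike those lists, muscle atrophy and autophagy genes rose in 9 of 19 cases in the mean of the genotypes, with 0 lower. Among all genes 12.9% were higher.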
